A study of Mus musculus with 10 samples.

Results

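Neutrophils are short-lived phagocytes of the innate immune system, and in the fetus much of their production takes place in the liver. Their precursors fill cytoplasmic granules in waves. The primary (azurophil) granules of the promyelocyte receive myeloperoxidase and serine proteases, the secondary (specific) granules that follow receive lactoferrin and antimicrobial peptides, and the calcium-binding proteins S100A8 and S100A9, which pair as calprotectin, accumulate in the cytosol. C/EBP epsilon is a transcription factor needed for the secondary granule programme. Each granule protein is thus made at a defined step of neutrophil formation.

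The genes followed were 10 of the 55401 genes in the count table: the primary granule genes Mpo, Elane, Prtn3 and Ctsg, the secondary granule genes Ltf, Camp and Ngp, the cytosolic pair S100a8 and S100a9, and the regulator Cebpe. They were taken by name through their Ensembl identifiers, whatever their values. All 10 passed the filter on low counts, which left 14098 genes for testing. RNA-seq was made from the livers of 10 female mouse fetuses at E18.5, late in gestation, 5 that carried a deletion of Mir483 on the paternal chromosome (Mir483Pat-KO) and 5 wild-type littermates (WT), each library from 1 fetus. Mir483 is a microRNA gene inside Igf2 and is expressed from the paternal copy, so the comparison asked what liver transcripts do when it is lost. The deletion is constitutive and present in every cell. It was made in C57BL/6N embryonic stem cells, 2 clones of which were used, with the selection marker removed by Cre, and the colony was kept by crossing to C57BL/6J, so both groups are on a C57BL/6 background. The labels do not give which clone or litter each fetus came from.

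Between 10831350 and 14765880 counts were assigned to genes in each library. Reads over Mir483 were counted 11, 10, 22, 21 and 12 times in the WT libraries and 0 times in each of the 5 Mir483Pat-KO libraries, as the labels state. Hepatocyte markers such as Alb were the most abundant of the marker lists, and erythroid, macrophage, megakaryocyte and granulocyte markers were all detected, as a blood-forming fetal liver would give. In a whole organ, fewer cells of a type and less RNA per cell cannot be told apart. Of the identification numbers in the labels, 4 WT and 2 Mir483Pat-KO fetuses had numbers in a lower range and 1 WT and 3 in an upper range. What the ranges stand for is not given.

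The microRNA that was lost has 2 mature arms, shown because the seed (bases 2 to 8, in capitals) decides which messages each arm can pair with. Both are given 5′ to 3′ from RefSeq on build GRCm38.p6, minus strand, miR-483-3p at chr7:142654932-142654952 and miR-483-5p at chr7:142654968-142654989.
miR-483-3p: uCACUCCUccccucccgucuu
miR-483-5p: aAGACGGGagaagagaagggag
The DNA letters that pair with these seeds, AGGAGTG for the 3p arm and CCCGTCT for the 5p arm, were searched on the sense strand of the longest annotated 3′ UTR of each gene. None of the 10 genes held either. Of the 12888 tested genes with an annotated 3′ UTR, 13.9% held the first and 3.68% the second. The UTRs of the 10 ran from 56 bases for Camp to 603 for Ngp, and the comparison was not matched for length. The search says only that these letters are not in those UTRs.

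The 10 genes lie on 5 chromosomes (GRCm38). Elane (chr10:79886247-79888215) and Prtn3 (chr10:79874476-79883174) are neighbours 3.1 kb apart on the plus strand. S100a8 (chr3:90668978-90670035, plus strand) and S100a9 (chr3:90692632-90695721, minus strand) are 22.6 kb apart. Camp (chr9:109847379-109849617, minus strand), Ngp (chr9:110419747-110423012, plus strand) and Ltf (chr9:111019271-111042767, plus strand) are spread over 1 stretch of chromosome 9, with 570.1 kb between Camp and Ngp and 596.3 kb between Ngp and Ltf. Ctsg (chr14:56099881-56102574, minus strand) and Cebpe (chr14:54710360-54712174, minus strand) are 1387.7 kb apart. Mpo (chr11:87793581-87804413, plus strand) stands alone.

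RefSeq promoter windows, 250 bases before to 50 after the RefSeq start site, were given for 9 of the 10 genes. That start need not be the outermost annotated base. For Mpo, Elane, Prtn3, S100a8, Ltf and Ngp it lies inside the interval given above. Windows of 30 bases around matches are shown because they recur among the primary granule genes and among some of the secondary granule genes. The ETS motif AGGAAGT, which fits the factor PU.1, was found on either strand in all 4 primary granule promoters and in that of S100a8, and in 9.4% of 32851 promoters. The capitals mark the match, and each line reads 5′ to 3′ on the strand of the gene. The windows lie at chr11:87793550-87793579, chr10:79886217-79886246, chr10:79879562-79879591 and, on the minus strand, chr14:56102762-56102791.
Mpo: tggagagagagAGGAAGTtgcctttgtccc
Elane: gtgtcccagggAGGAAGTagggctgtggcc
Prtn3: aaactggaaggAGGAAGTgggacccacagc
Ctsg: agaggaagaaaAGGAAGTagtcacctgttt
The C/EBP motif TTGCNNAA was found on either strand in the promoters of Ltf, Ngp (at 2 places) and S100a9, and in 10.8% of all promoters. On the plus strand the Ltf window lies at chr9:111019206-111019235 and the Ngp windows at chr9:110419659-110419688 and chr9:110419786-110419815.
Ltf: aggcaggcctaTTGGGCAAtagggtggggc
Ngp, distal: gtcctggtttaTTGCCCAAacctccttgcc
Ngp, proximal: accggcagttcTTGGGCAAggcagtctcaa
MYB letters (AACGG) were in the promoters of Elane and Prtn3, against 17.4% of all promoters. RUNX letters (TGTGGT) were in those of Ctsg, Ltf and S100a9, against 16.8%, and TATAAA in those of Ctsg, S100a8 and S100a9, against 13.6%. The Camp promoter held none of these motifs. The motifs were picked after the sequences were seen, and a match is a description, not a site.

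Together the 10 genes took 0.321% ± 0.0483 of the counts in WT livers and 0.349% ± 0.0218 in Mir483Pat-KO livers (SD, n = 5 each). None of the 10 passed the test of genotype, edgeR's quasi-likelihood test with Benjamini-Hochberg adjustment over all genes tested and an adjusted p under 0.05. Over all genes 5.19% passed, 2.76% lower and 2.43% higher in Mir483Pat-KO livers, and 1.23% did so with a change of more than 1.5-fold as well. Before adjustment 1 of the 10, S100a8, had a p under 0.05, against 22.2% of all genes. The groups overlapped for all 10, whereas they did not overlap for 6.60% of all genes. The log2 fold change, Mir483Pat-KO against WT, was below 0 for 5 genes and above 0 for 5, with a median of -0.03 beside 0.004 over all genes. The 95% intervals of the 10 genes stayed between -0.42 and 0.54 on the log2 scale, so that any change outside this range lay beyond the interval of every one of them.

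**Figure D1:**
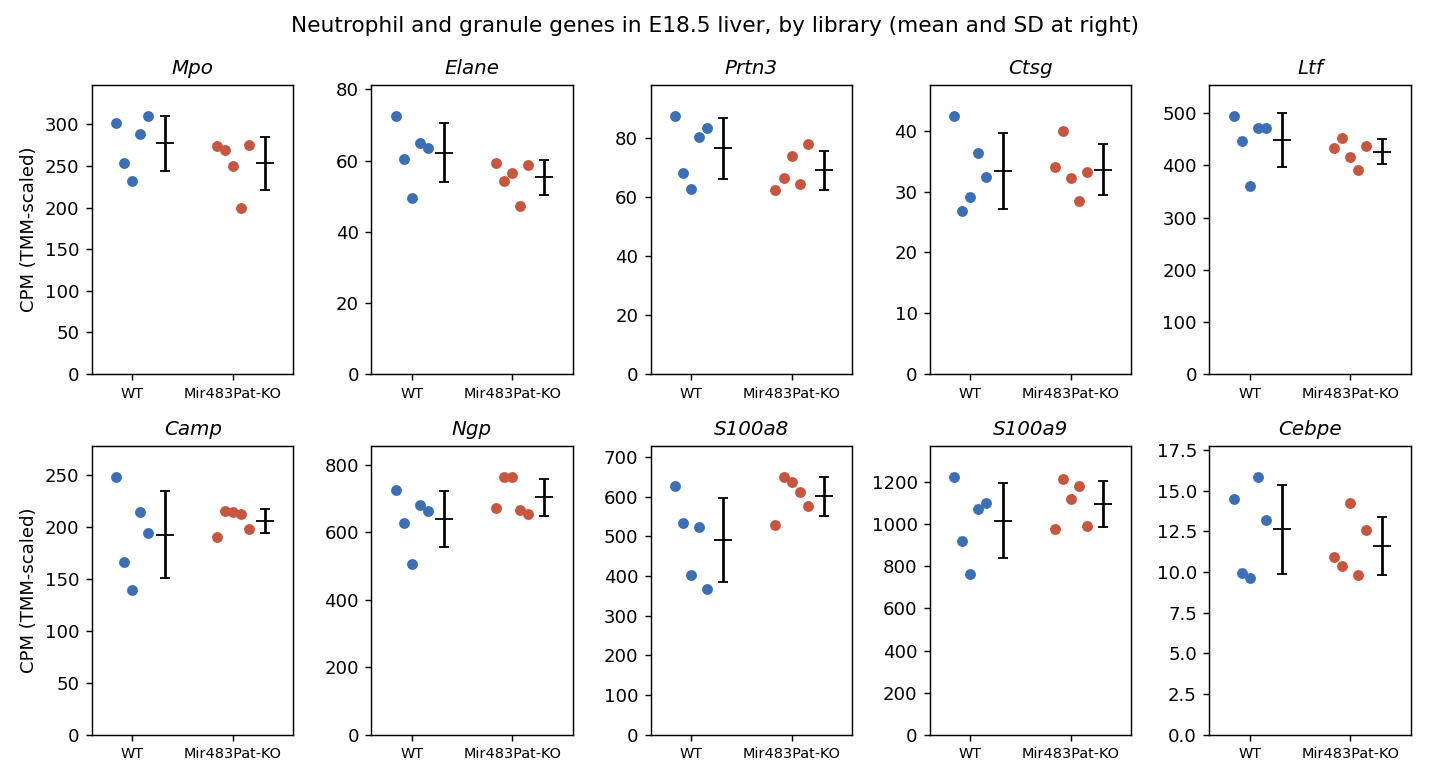
Level of each of the 10 genes (y axis, CPM on TMM-scaled library sizes, from 0) in each of the 5 WT and 5 Mir483Pat-KO libraries (points), with the mean and SD of each group to the right of its points. In each panel the points of the 2 groups overlap, from Cebpe at a WT mean of 12.6 CPM to S100a9 at 1017.

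Per kilobase of exon, the levels in WT livers were ordered by compartment. S100a9 was the highest at 1948 ± 343 CPM per kb (counts scaled to a common library total, CPM, over the length of exon; SD, n = 5), ahead of S100a8 at 707 ± 152. The secondary granule genes came next, Ngp at 524 ± 68.4, Camp at 254 ± 55.5 and Ltf at 130.042 ± 15.2 CPM per kb. The primary granule genes were lower, Mpo at 81.0 ± 9.72, Elane at 63.2 ± 8.501, Prtn3 at 44.1 ± 6.02 and Ctsg at 32.3 ± 5.98 CPM per kb, and Cebpe was the lowest at 10.2 ± 2.21. Within 1 SD of each mean, S100a8 was not separated from Ngp, Mpo from Elane, or Prtn3 from Ctsg. The order in Mir483Pat-KO livers was the same, from S100a9 at 2102 ± 210 to Cebpe at 9.34 ± 1.45 CPM per kb.

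Primary granule genes. Mpo encodes myeloperoxidase, the enzyme that makes hypochlorous acid. It stood at 302, 254, 232, 288 and 310 CPM in WT livers and at 274, 269, 250, 200 and 275 CPM in the mutants. Only Mir483Pat-KO 4 lay under the WT range, although all 5 mutants were below the WT mean of 277 ± 33.3. The log2 fold change was -0.13 (95% interval -0.34 to 0.08, adjusted p = 0.472, edgeR quasi-likelihood), and single libraries moved it, to -0.06 without Mir483Pat-KO 4 and to -0.20 without WT 3. Of the exon bases of Mpo, 15.0% overlap the gene Gm11505 on the other strand.

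Elane, the neutrophil elastase gene, had 72.5, 60.6, 49.5, 64.8 and 63.6 CPM in WT livers and 59.4, 54.3, 56.6, 47.1 and 58.8 CPM in the mutants. The mutants were again all under the WT mean, and 1 of them was under the lowest WT library. Its log2 fold change of -0.17 was the lowest of the 10 (-0.37 to 0.03, adjusted p = 0.305 by edgeR). Its neighbour Prtn3, proteinase 3, had 87.4, 68.1, 62.8, 80.2 and 83.2 CPM in WT livers and 62.5, 66.2, 73.7, 64.3 and 77.9 CPM in the mutants. The fold change was much like that of Elane, -0.15 (-0.34 to 0.05, adjusted p = 0.382), and 4 of 5 mutants were under the WT mean. Without WT 3, which was low for both, the estimates were -0.25 for Elane and -0.22 for Prtn3. Of its exon bases 9.2% overlap Plppr3 on the other strand. The ratio of Elane to Prtn3 was 0.816 ± 0.0478 in WT livers and 0.805 ± 0.0878 in the mutants.

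Ctsg encodes cathepsin G. It was measured at 42.4, 26.9, 29.04, 36.3 and 32.3 CPM in WT livers and at 34.0, 39.98, 32.2, 28.4 and 33.2 CPM in the mutants. All mutants lay inside the WT range, and the log2 fold change was 0.01 (-0.24 to 0.26, adjusted p = 0.970). Its sign turned when any 1 of WT 2, WT 3, Mir483Pat-KO 1 or Mir483Pat-KO 2 was left out. Summed, the primary granule genes gave 449 ± 55.7 CPM in WT livers and 411.3 ± 41.7 CPM in the mutants.

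Secondary granule genes. Ltf encodes lactoferrin, the iron-binding protein of specific granules. It had 495, 446, 360, 471 and 471 CPM in WT livers and 434, 453, 416, 392 and 438 CPM in the mutants. The mutants lay inside the WT range, 4 of 5 of them below its mean of 449 ± 52.4, with a log2 fold change of -0.07 (-0.25 to 0.10, adjusted p = 0.647). The estimate was -0.15 without WT 3 and -0.04 without WT 1. It had the narrowest interval of the 10.

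Camp, the cathelicidin precursor, had 248.7, 167, 140, 214 and 194 CPM in WT livers and 190, 216, 214, 213 and 198 CPM in the mutants. The mutants lay close together within a wide WT range, and the log2 fold change was 0.10 (-0.15 to 0.34, adjusted p = 0.668). Without WT 3, its lowest library, the estimate was -0.01, and without WT 1, its highest, 0.20. Leaving out WT 2 gave 0.04. Ngp, neutrophilic granule protein, a relative of the cathelicidins, had 725, 627, 505, 681 and 662 CPM in WT livers and 672, 765, 763, 666 and 654 CPM in the mutants. Mir483Pat-KO 2 and 3 were above every WT library, and no mutant was below the WT mean of 640 ± 83.6. The log2 fold change was 0.14 (-0.06 to 0.33, adjusted p = 0.400), and without WT 3 it was 0.05. The ratio of Camp to Ngp was 0.299 ± 0.0307 in WT livers and 0.294 ± 0.0171 in the mutants.

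The secondary granule genes summed to 1282 ± 175 CPM in WT livers and 1337 ± 72.2 CPM in the mutants. Their sum per CPM of primary granule genes lay between 2.69 and 3.03 in WT livers and between 2.90 and 3.74 in the mutants. The mean ratio was 2.85 ± 0.143 against 3.27 ± 0.332, and the groups overlapped. This ratio was formed after the values had been seen and was given no test. The same holds for the ratios of single genes, S100a8 to Elane among them. The ratio of S100a8 to Elane lay between 5.79 and 8.80 in WT livers and between 8.88 and 12.99 in the mutants. Its means were 7.88 ± 1.22 and 10.98 ± 1.65, and it was the 1 of 5 ratios formed without overlap of the groups. S100a8 had the highest log2 fold change of the genes followed (0.29) and Elane the lowest (-0.17). This ratio thus pairs the extremes of the same data, so its separation is no further result. How often other pairs of these genes separate was not counted. Genes within 1 percentage point of the GC content of S100a8 had a median log2 fold change of 0.09, and those near Elane -0.11. The ratios of S100a8 to S100a9, Elane to Prtn3 and Camp to Ngp overlapped.

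The cytosolic pair. S100a8 had 627, 533, 403, 522 and 368 CPM in WT livers and 528, 650, 636, 612 and 577 CPM in the mutants. All 5 mutants were above the WT mean of 490.5 ± 105, and 2 were above the highest WT library, while WT 3, WT 4 and WT 5 were lower than any mutant. The log2 fold change of 0.29 was the largest of the 10, with an interval from 0.04 to 0.54. Its p was 0.0258 before adjustment and 0.162 after it (edgeR quasi-likelihood), so S100a8 did not pass. It did pass in the fit without the low-count filter (adjusted p = 0.0335) and in the fit without WT 1 (log2 fold change 0.39, adjusted p = 0.0493). Without WT 5 the estimate was 0.21, and among the fetuses of the lower number range alone, 4 WT and 2 Mir483Pat-KO, it was 0.17 (adjusted p = 0.636). With number range as covariate over all 10 libraries the estimate was 0.37 (adjusted p = 0.0877), and with replicate number as a block 0.32 (adjusted p = 0.0878).

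S100a9, the partner of S100a8, was the most abundant of the 10. It had 1226, 919, 762, 1074 and 1103 CPM in WT livers and 977, 1216, 1122, 1182 and 990 CPM in the mutants. The mutants all lay inside the WT range, with a log2 fold change of 0.11 (-0.12 to 0.34, adjusted p = 0.593). It was 0.01 without WT 3, 0.06 without Mir483Pat-KO 2, 0.07 without WT 2 or Mir483Pat-KO 4, and 0.18 without WT 1. The ratio of S100a8 to S100a9 was 0.334 in WT 5 and between 0.487 and 0.583 in the other 9 libraries. The low S100a8 of WT 5 thus had no counterpart in S100a9, which was above its WT mean of 1017 ± 179 there. Summed, the pair gave 1507 ± 249.3 CPM in WT livers and 1698 ± 155 CPM in the mutants.

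The regulator. Cebpe had 14.5, 9.97, 9.66, 15.9 and 13.2 CPM in WT livers and 10.9, 10.4, 14.2, 9.83 and 12.6 CPM in the mutants, from 109 to 206 counts a library. The groups covered much the same range, and the log2 fold change was -0.12 (-0.42 to 0.19, adjusted p = 0.677). The estimate ran from -0.22 without WT 3 to -0.03 without WT 4, with values near the lower end without WT 2 (-0.19) or Mir483Pat-KO 3 (-0.21) and higher ones without WT 1 (-0.07) or Mir483Pat-KO 4 (-0.08). At this depth its interval was the widest of the 10.

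**Figure D2:**
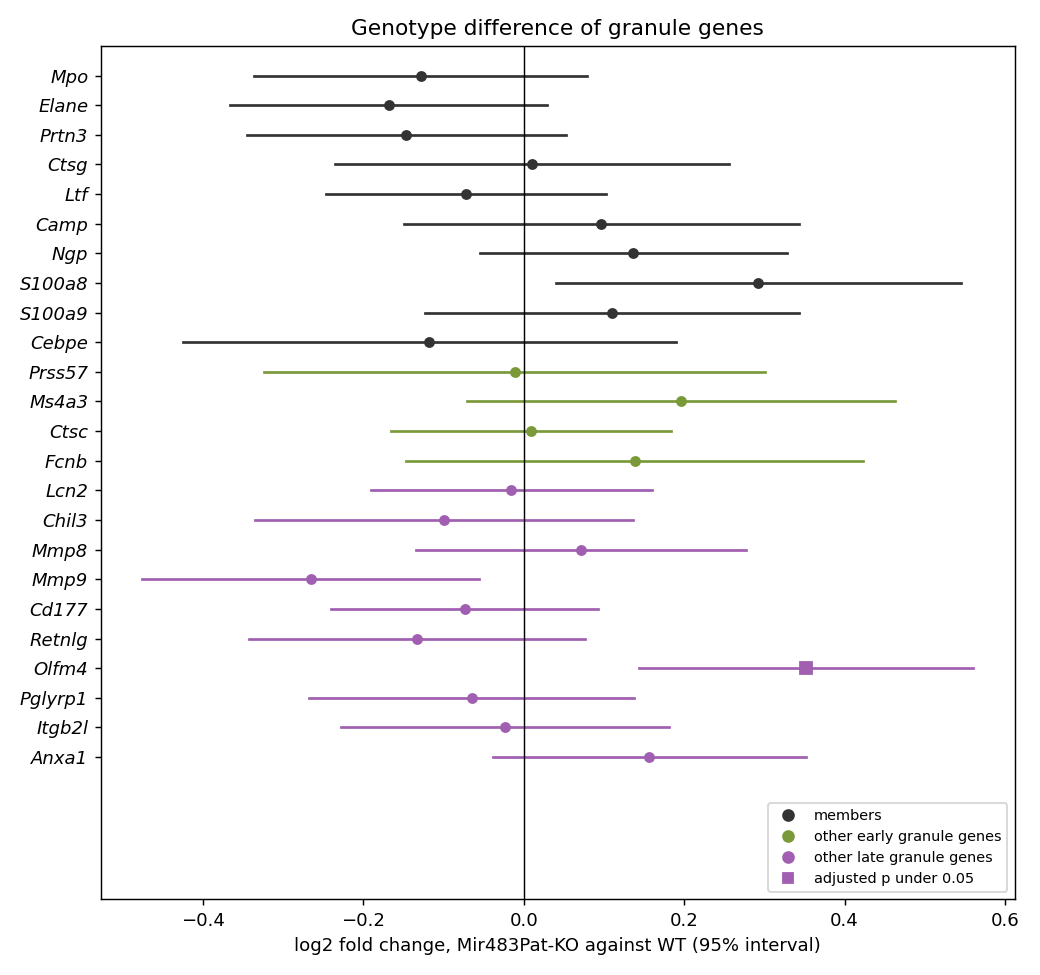
Log2 fold change, Mir483Pat-KO against WT (x axis), of the 10 genes (black) and of the other early and late granule genes (coloured), with 95% intervals from edgeR's quasi-likelihood fit (lines) and a square where the adjusted p was under 0.05. The intervals of 9 of the 10 genes include 0, that of S100a8 runs from 0.04 to 0.54, and Olfm4 carries the only square.

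Within each group the 10 genes varied from fetus to fetus, and they did so together. WT 1 had the highest level of its group for 8 of the 10 genes and was above the group mean for all 10. WT 3 had the lowest for 8 and was below the mean for all 10. Averaged over the genes, WT 1 was 0.26 above and WT 3 was 0.31 below the mean of its group on the log2 scale. Among the mutants the spread was smaller, from 0.07 above the mean in Mir483Pat-KO 2, the highest for 6 genes, to 0.11 below it in Mir483Pat-KO 4, the lowest for 5. The summed level of the 10 genes was accordingly 3840, 3112, 2552, 3448 and 3301 CPM in WT livers and 3242, 3740, 3578, 3413 and 3314 CPM in the mutants. The 5 mutants thus lay inside the WT range, at 3457 ± 202 against 3251 ± 473 CPM. Without WT 3 the log2 fold changes had a median of -0.10 over the 10 genes, beside -0.008 over all genes. Of the 10, 3 had an unadjusted p under 0.05 there and none passed. The share of all genes with such a p was not counted in that fit, and was 22.2% with all 10 libraries. Leaving out any other library gave 0 or 1 of the 10.

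Across the 10 libraries, the deviation of each gene from its group mean was set beside the mean deviation of the other 9. Pearson's r was 0.914 for Camp, 0.894 for Ngp, 0.875 for Ltf, 0.836 for Elane and 0.814 for Prtn3. It was lower for S100a9 (0.776), Ctsg (0.758), Cebpe (0.744) and Mpo (0.667), and lowest for S100a8 (0.468). All 45 pairs of genes had an r above 0, from 0.027 to 0.936, with a median of 0.672. These are descriptions over 10 libraries that share their library size and composition between genes.

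**Figure D3:**
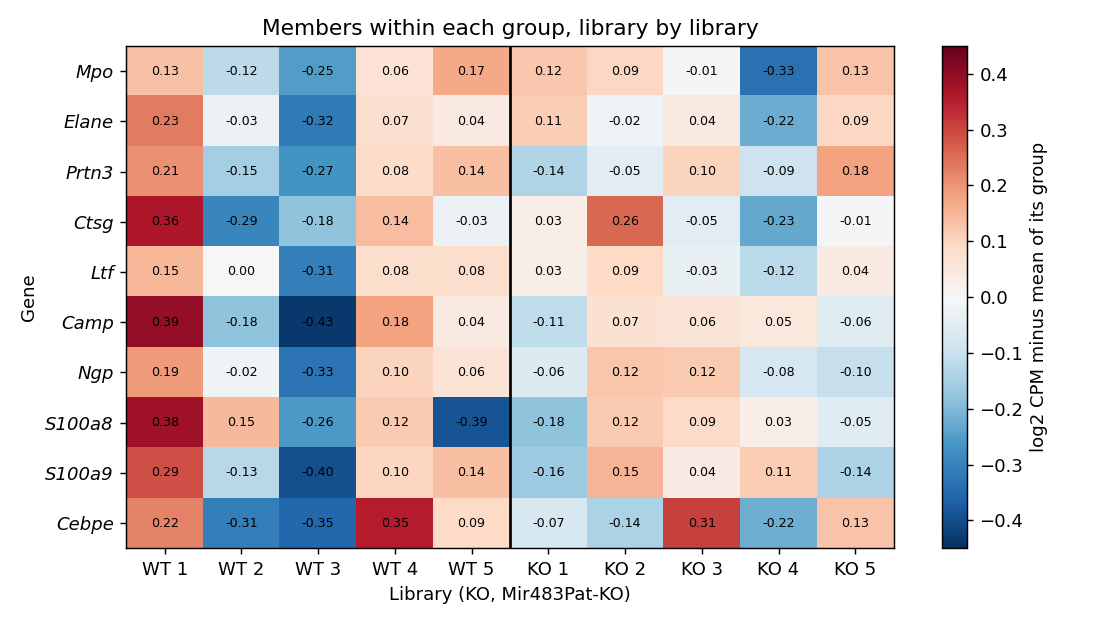
Deviation of each gene (rows) in each library (columns) from the mean of its group, in log2 CPM (colour and printed value, red above and blue below the mean). The WT 1 column is red and the WT 3 column blue for all 10 genes, and in WT 5 S100a8 stands at -0.39 while the other 9 genes are near or above the mean.

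By the same measure, the genes outside the 10 that varied most like their mean were Myo1g (r = 0.966), Fcnb (0.953), Myo1f (0.949), Itgb2 (0.937), Pstpip1 (0.932), Rab44 (0.929), Rasa3 (0.922) and Cd177 (0.921). Fcnb encodes a ficolin of myeloid cells, Itgb2 the beta subunit of the leukocyte integrins, Cd177 a neutrophil surface glycoprotein, and Myo1g and Myo1f are myosins of blood cells. None of these 8 genes passed the test of genotype. Their log2 fold changes ran from -0.10 for Myo1g to 0.14 for Fcnb.

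Other granule genes were taken from lists. Of 4 early granule genes none passed, and their log2 fold changes ran from -0.01 for Prss57, a serine protease, to 0.20 for Ms4a3, a membrane protein of granulocyte precursors. Ms4a3 had 15.6 ± 3.71 CPM in WT livers and 17.8 ± 1.01 in the mutants (adjusted p = 0.384 by edgeR), and passed without WT 1, its highest WT library (0.34, adjusted p = 0.0494). Without WT 3 it was at 0.12 (adjusted p = 0.627), and with GC content and length offsets at 0.003 (adjusted p = 0.993). Of 10 late granule genes 1 passed, Olfm4, which was higher in the mutants. Olfm4 encodes olfactomedin 4, a glycoprotein found in the specific granules of a subset of neutrophils. It had 190.5, 186, 144, 182 and 151 CPM in WT livers and 218, 258, 227, 188 and 196 CPM in the mutants. Mir483Pat-KO 4, its lowest mutant, lay under WT 1, so the groups overlapped. The log2 fold change was 0.35 (0.14 to 0.56) and the adjusted p was 0.0490.

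That call of Olfm4 was at the edge of the threshold. It was lost without WT 3 (0.28, adjusted p = 0.118), WT 4 (0.0772) or WT 5 (0.113), and without any 1 of the 5 mutants, of which leaving out Mir483Pat-KO 2 gave 0.27 (adjusted p = 0.136). RLE scaling gave an adjusted p of 0.0511, and with offsets for GC content and length the log2 fold change was 0.21 (0.188). The other 9 late granule genes had values on both sides of 0. Mmp9, gelatinase B of the tertiary granules, was the lowest at -0.27 (-0.48 to -0.06, adjusted p = 0.127), with 54.6 ± 6.94 CPM in WT livers and 45.4 ± 5.33 in the mutants, and it passed without WT 3 (-0.36, adjusted p = 0.0398). Lcn2, an iron-siderophore binding lipocalin, was at -0.02 (-0.19 to 0.16).

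None of 8 granulocyte regulators passed. Cebpa, which commits progenitors to the granulocyte line and is also abundant in hepatocytes, had the smallest p, with 185 ± 12.3 CPM in WT livers and 157 ± 20.4 in the mutants (log2 fold change -0.24, adjusted p = 0.116), and with GC content and length offsets it was at -0.08 (adjusted p = 0.616). Cebpd followed at -0.36 (adjusted p = 0.239), with 5.70 ± 0.799 and 4.44 ± 1.07 CPM, and passed with number range as covariate (-0.55, adjusted p = 0.0481). Runx1, needed for blood formation, was at 0.19 (adjusted p = 0.366). Spi1, which encodes PU.1, was at -0.16 and Gfi1, a repressor required for neutrophil formation, at 0.18.

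Surface receptors gave no call either, with 0 of 13 passing and a median log2 fold change of 0.03. C5ar1, the receptor for the complement peptide C5a, had 8.28 ± 0.678 CPM in WT livers and 6.98 ± 0.481 in the mutants (-0.25, adjusted p = 0.192). The formyl peptide receptors were on opposite sides of 0, Fpr2 at 0.23 (0.312) and Fpr1 at -0.21 (0.333). Csf3r, the receptor for granulocyte colony-stimulating factor, was at 0.03 (-0.19 to 0.24), and Ly6g, a marker of mature mouse neutrophils, at -0.04 with 5.84 ± 1.75 and 5.65 ± 0.578 CPM.

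Among 6 ligands that act on neutrophils or their precursors, Csf3, Cxcl2 and Cxcl5 were below the low-count filter and none of the other 3 passed. Cxcl12, the chemokine that retains precursors in blood-forming tissue, had 145 ± 17.5 CPM in WT livers and 115 ± 14.6 in the mutants (log2 fold change -0.33, adjusted p = 0.0515). It lay just outside the threshold, and passed with RLE scaling (0.0494), DESeq2 (0.0184), limma-voom (0.0494), the robust fit (0.0434), other low-count filters (0.0491 with at least 10 counts in every library, 0.00647 with none) and without WT 1 (0.0456) or Mir483Pat-KO 1 (0.0150), but not with GC content and length offsets (0.0643), with number range as covariate (0.0883), in the lower range alone (0.418) or without any 1 of the other 8 libraries (largest 0.107). Cxcl1, a neutrophil attractant, had 1.41 ± 0.610 and 2.58 ± 0.760 CPM (0.87, adjusted p = 0.0823), and passed without WT 4 (1.13, adjusted p = 0.0396) and with no low-count filter (0.0357). Il1b, an inflammatory cytokine gene, was at 1.32 (adjusted p = 0.152), a value set by Mir483Pat-KO 3, without which it was 0.42, and it passed with no low-count filter (adjusted p = 0.00534). The 6 subunits of the phagocyte oxidase gave 0 calls, between -0.05 and 0.17, with Cybb, the catalytic subunit, the highest at 0.17 (adjusted p = 0.281). Of 2 granule protease inhibitors, Serpinb1a was at 0.13 and Slpi at -0.16, and neither passed.

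Markers of other cells were read beside these genes, since several are shared between myeloid cells. Eosinophil markers passed in 0 of 4 tested, and Il5ra and the basophil and mast cell marker Fcer1a were below the low-count filter. Prg2 and Epx, which encode eosinophil granule proteins, were at 0.35 (adjusted p = 0.0902) and 0.59 (adjusted p = 0.103) and Prg3, a relative of Prg2, at 0.62 (adjusted p = 0.284). Prg2 passed with no low-count filter (0.0133) and without Mir483Pat-KO 3 (0.42, adjusted p = 0.0435). Siglecf, an eosinophil surface lectin, was on the other side of 0 at -0.36 (adjusted p = 0.341). The summed level of the list lay between 32.2 and 44.2 CPM in WT livers and between 37.5 and 56.9 CPM in the mutants. Basophil and mast cell markers passed in 0 of 4 and summed to 6.54 ± 1.07 and 5.86 ± 1.28 CPM. Progenitor markers passed in 0 of 4 (56.9 ± 3.64 and 54.04 ± 3.86 CPM), as did megakaryocyte markers (209 ± 58.9 and 195 ± 24.8 CPM).

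Monocyte and macrophage markers passed lower in 2 of 14 and higher in none, with 8 values below 0 and 6 above. C1qa, a subunit of complement C1q, was at -0.29 on the log2 scale (adjusted p = 0.0389) and Clec4f, a lectin of Kupffer cells, at -0.46 (adjusted p = 0.0416). The call of C1qa was lost without any 1 of WT 4, WT 5 or Mir483Pat-KO 1, 2, 4 or 5 (largest adjusted p = 0.0980) and with GC content and length offsets (0.0975). Its log2 fold change stayed between -0.35 and -0.24 on leaving out any 1 library, and was -0.19 with the offsets. The call of Clec4f was lost without WT 1, 4 or 5 or Mir483Pat-KO 2, 4 or 5 (largest adjusted p = 0.0948) and in the robust fit (0.0575), with log2 fold changes that stayed between -0.54 and -0.35 on leaving out any 1 library. C1qc, another C1q subunit, was at -0.31 (adjusted p = 0.0711), and passed with DESeq2 (0.0381), with no low-count filter (0.0161), with number range as covariate (0.00538) and without Mir483Pat-KO 3 (0.0455). On the other side of 0 were Cd5l, a secreted macrophage protein gene, at 0.30 (adjusted p = 0.112), Ccr2, a chemokine receptor of monocytes, at 0.42 (adjusted p = 0.171), and Timd4, a receptor for dying cells, at 0.24 (adjusted p = 0.234), none of which passed. Cd5l passed with no low-count filter (adjusted p = 0.0211). With number range as covariate Cd5l was at 0.16 (adjusted p = 0.268), and in the lower range alone at 0.10 (adjusted p = 0.732). The summed list lay between 985.5 and 1171 CPM in WT livers and between 872 and 1121 CPM in the mutants. Erythroid markers were higher in 1 of 7, the adult beta-globin gene Hbb-bs (0.54, adjusted p = 0.0120), and all 7 were above 0, with sums of 15542 to 20139 CPM in WT livers and 18181 to 25954 CPM in the mutants. The call of Hbb-bs held on leaving out any 1 library and was lost in the lower number range alone (0.23, adjusted p = 0.320). Hepatocyte markers passed in 0 of 5 and were all below 0, with sums of 172146 ± 9377 and 153777 ± 10602 CPM. The part of these shifts in the values of the granule genes was not tested.

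Transcript GC content moved with the genotype difference over all genes. The log2 fold change had a median of 0.20 in the tenth of genes with the lowest GC content and -0.14 in the tenth with the highest, and Spearman's rho was -0.438 across 14089 genes, which are not independent replicates. The granule genes spanned that scale. S100a8 (44.2%) and S100a9 (45.1%) had the lowest GC content of the 10, and genes within 1 percentage point of them had median log2 fold changes of 0.09 and 0.07. Elane (57.4%), Prtn3 (60.7%) and Cebpe (61.5%) had the highest, and genes like them had medians of -0.11, -0.16 and -0.17. In a fit with offsets for GC content and length the log2 fold change of S100a8 was 0.16 (adjusted p = 0.418). Mpo was at -0.03 (adjusted p = 0.878), Elane at -0.10 and Prtn3 at -0.02, and S100a9 and Cebpe crossed 0. Camp and Ngp kept values above 0 there, and none of the 10 passed.

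**Figure D4:**
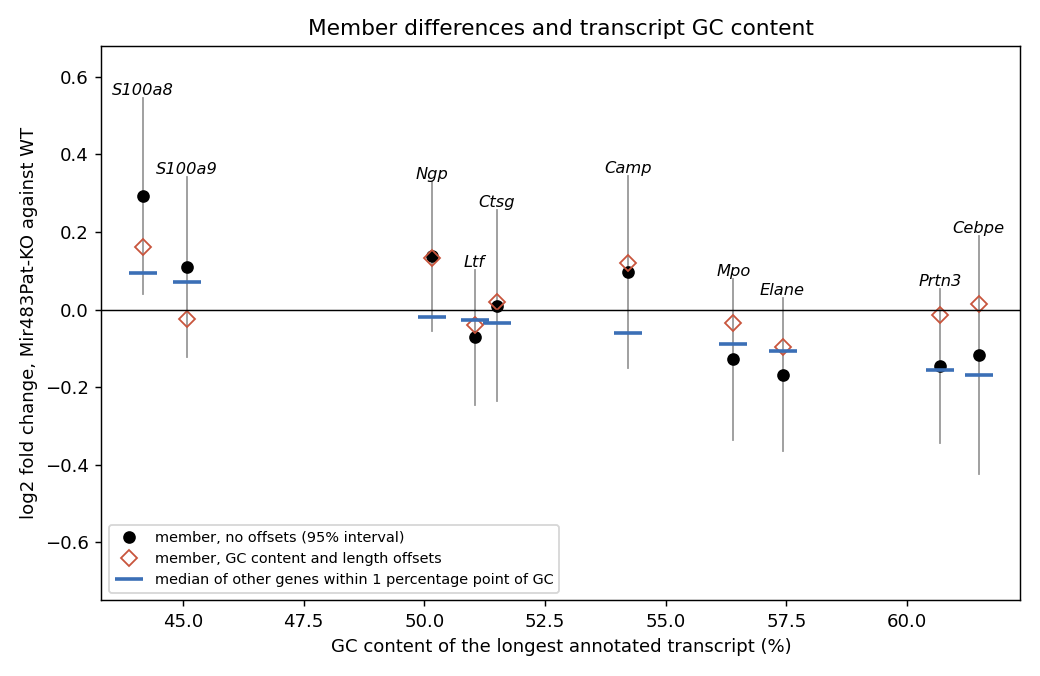
Log2 fold change, Mir483Pat-KO against WT (y axis), of the 10 genes against the GC content of their longest annotated transcript (x axis, %), without offsets (black, with 95% interval) and with GC content and length offsets (open diamonds), beside the median of other genes within 1 percentage point (blue bars). The blue bars fall from 0.09 at S100a8 to -0.17 at Cebpe, and with offsets all 10 genes lie between -0.10 and 0.16.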

How the data were processed

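The authors extracted RNA with a miRNeasy kit, made stranded polyA libraries, aligned paired reads with STAR to GRCm38 and deposited raw gene counts, 1 column per library. Matching identifiers to GENCODE M21 gave symbols for 55141 of 55401 rows. Counts were tested here with edgeR 4.0.16 (R 4.3.3): filterByExpr, TMM scaling, quasi-likelihood F-test of genotype over all 10 libraries, Benjamini-Hochberg adjustment over 14098 genes, with 95% intervals from the F statistic. CPM use TMM-scaled library sizes (10831350 to 14765880 counts before scaling), and counts of a gene limit its precision. Intervals do not cover batch. The test was checked on simulated counts. In these the genes were drawn independently and had no trend with GC content, so the check does not cover either feature.

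All 10 genes were described; of each related list, up to 3 genes with the smallest p and those that passed, with a few others (Prss57, Lcn2, Spi1, Gfi1, Csf3r, Ly6g, Siglecf, Cd5l, Ccr2, Timd4) chosen after their values were seen; and 8 outside genes by likeness (average log2 CPM of at least 0). The genes and lists were chosen with earlier results of these data known, and 1 listed item is not reported here. DESeq2 1.42.0, limma 3.58.1 and other filters, scalings and sample sets were alternatives; GC content and length offsets were added after seeing the data. Replicate numbers were not used to pair libraries: no source says what they share, and r between same-numbered libraries was from -0.05 to 0.26, not above 0.1 in every pair. No 2 replicates agreed within sampling noise. Whether multi-mapping reads were counted is not given in the sources used here. Searched on either strand, Mpo shared runs of sequence with 9 other genes, Gm11505 on its other strand among them. Prtn3 shared such runs only with Plppr3, which overlaps it on the other strand, and the libraries were stranded.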

Additional observations from a re-analysis of the deposited data

Results flagged for a closer look

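Single libraries stood apart from the rest of their group, by Dixon's criterion, in 6 of 196 sets of 5 libraries, and chance flags about 1 in 20. None of the 20 sets of the 10 neutrophil and granule genes was among them. WT 3, the library with the lowest level of 8 of the 10 genes, was low for Mmp9 (42.7 CPM, next 55.7), Itgb2l, an integrin subunit of neutrophils (25.5 CPM, next 34.9), and Ncf4, an oxidase subunit (24.1 CPM, next 31.5). Mir483Pat-KO 3 was high for Il1b (7.20 CPM, next 1.67) and C5ar1 (7.81 CPM, next 6.87). WT 5 was high for the macrophage gene C1qa (104.6 CPM, next 90.9).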

How the results depend on the processing

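None of the 10 genes passed in 18 of 20 alternatives. S100a8 passed without the low-count filter (1 gene, adjusted p = 0.0335) and without WT 1, so leaving out single libraries gave 0 to 1. Signs turned for Mpo in the lower number range alone (0.011), for S100a9 (-0.024) and Cebpe (0.013) with GC content and length offsets, for Camp without WT 3 (-0.011), and for Ctsg without WT 2 (-0.06), WT 3 (-0.05), Mir483Pat-KO 1 (-0.0025) or Mir483Pat-KO 2 (-0.070); on leaving out single libraries the highest were 0.20 for Camp and 0.10 for Ctsg, both without WT 1, and none of these values passed. The 731 genes that passed became 1122 with DESeq2, 1258 with no filter, 1189 with number range as covariate, 23 in the lower range alone (fewer libraries), 173 with the fold limit, and 279 (without Mir483Pat-KO 4) to 863 on leaving out single libraries. The 4 related genes became 7, 12, 7, 0 and 0 in the same order, and 1 to 5; C1qb passed with number range as covariate and Alas2 with GC content and length offsets. With the replicate number as a block, 1338 genes, 11 related genes, Cxcl12 (adjusted p = 0.0457), Cebpa (0.0436), Prg2 (0.0346), C1qc (0.0149) and Cd5l (0.00918) among them, and none of the 10 passed; 5 of 10 libraries correlated best with their own number. The summed level moved from a log2 ratio of 0.09 to 0.12 with total counts in place of TMM, and ran from 0.01 without WT 3 to 0.16 without WT 1 on leaving out single libraries. The cause of these moves was not tested. With 5 fetuses a group the intervals, not the missing calls, say how large a change could be.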
